A study of Mus musculus with 6 samples.

Results

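The genes of N-glycosylation were followed in primary mouse hepatocytes exposed to cyclosporin A (CsA). They were chosen by name, as a list of 44 genes that make sugar donors and dolichol, build the oligosaccharide, transfer it to protein and trim it. Of these, 43 had a row with their symbol among the 16331 rows of the deposited table, and Dpm3 was not analysed here. The list, and those of other pathway genes and markers below, were chosen with earlier results of these data known. Their shares beside those of all rows are descriptions, not tests. Hepatocytes of male C57Bl6 mice, cultured between collagen layers, were exposed for 48 hours to 10 µM CsA, an immunosuppressant that binds cyclophilins, or to 0.5% DMSO, the vehicle. Each group had 3 samples, with 1 array per sample, and the labels describe 3 independent experiments, each with cells of a different animal. All cultures received insulin, glucagon and hydrocortisone. The age of the mice, and whether DMSO was in the CsA medium too, are not given in the sources used here.

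N-glycosylation attaches a preformed oligosaccharide to asparagine residues of proteins that enter the endoplasmic reticulum. ALG enzymes assemble it sugar by sugar on the lipid dolichol, oligosaccharyltransferase moves it to the protein, and glucosidases and mannosidases trim it, which lets chaperones follow folding before Golgi enzymes rebuild the glycan. Hepatocytes use the pathway heavily, since most plasma proteins they secrete are glycoproteins.

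Among the members, Pmm1 and Gfpt1 changed most after CsA. Both belong to sugar and dolichol supply, where 10 of 13 measured genes did not pass the threshold given below. Phosphomannomutases make the mannose phosphate needed for GDP-mannose. Of these, Pmm1 rose 6.02-fold, while Pmm2, on which human glycosylation chiefly depends, differed by 0.12 ± 0.14 (log2, SE). Gfpt1, the rate-limiting enzyme of the hexosamine route to UDP-N-acetylglucosamine, rose 3.17-fold. Other called members moved less. Rpn1, a shared subunit of oligosaccharyltransferase, rose 1.74-fold. Alg2, Alg8, Uggt1 and Uggt2 rose by 1.32-fold to 1.41-fold, while Alg5, Man1a and Mgat1 fell by 1.65-fold to 1.78-fold. In all, 7 of 43 members (16.3%) were higher and 3 (6.98%) lower at an adjusted p under 0.05 in limma. Over all rows 9.55% were higher and 9.05% lower, and the 23.3% of members that changed in either direction stood beside 18.6% of all rows. The share of changed members was thus near that of the table, and the names and sizes below carry the description. The median difference (CsA minus DMSO) was 0.21 on the log2 scale, against 0.04 over all rows.

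Same-numbered CsA and DMSO arrays varied together over the table, with correlations of their deviations from the group means of 0.398, 0.242 and 0.499 for numbers 1, 2 and 3. Of the 6 unmatched pairs, CsA array 1 with DMSO array 2 reached 0.221, close to the matched pair numbered 2, and the others lay between -0.496 and 0.040. With the replicate number as a block, 14 members were higher and 4 lower, 41.9% against 28.7% of all rows. The higher members were 32.6% against 15.8% of rows, and the lower ones 9.30% against 12.9%. The 8 members added by the block are Dpm2, Alg6, Alg10b, Stt3a, Ddost, Dad1, Magt1 and Mogs. Stt3a passed under no other setting, and for the rest the other settings that called them are given with each. The difference was above 0 in all 3 same-numbered pairs for 25 members (58.1%), against 32.8% of rows, and below 0 in all 3 for 6 members (14%), against 24% of rows. Taken over the group means, the difference was above 0 for 33 members (76.7%), against 56.3% of rows. All CsA arrays lay above all DMSO arrays for 14 members (32.6%, against 19.8% of rows) and below them for 3 (6.98%, against 15.3%). Both arrays numbered 3 had the lowest mean level of the 43 members in their group, 9.18 for CsA and 9.05 for DMSO. The other arrays were at 9.43 and 9.34 for CsA and at 9.15 and 9.07 for DMSO. Without both arrays numbered 3, 15 members were higher and 4 lower, 44.2% against 25.5% of rows. Leaving out 1 array moved the 7 higher members to 3 (either array numbered 2), 4 (CsA array 1), 5 (DMSO array 1), 9 (DMSO array 3) or 12 (CsA array 3). Leaving out DMSO array 1 or either array numbered 2 left 2 lower members. The share of all rows called with 1 array left out is not given here, so these counts cannot be set against the table.

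**Figure D1:**
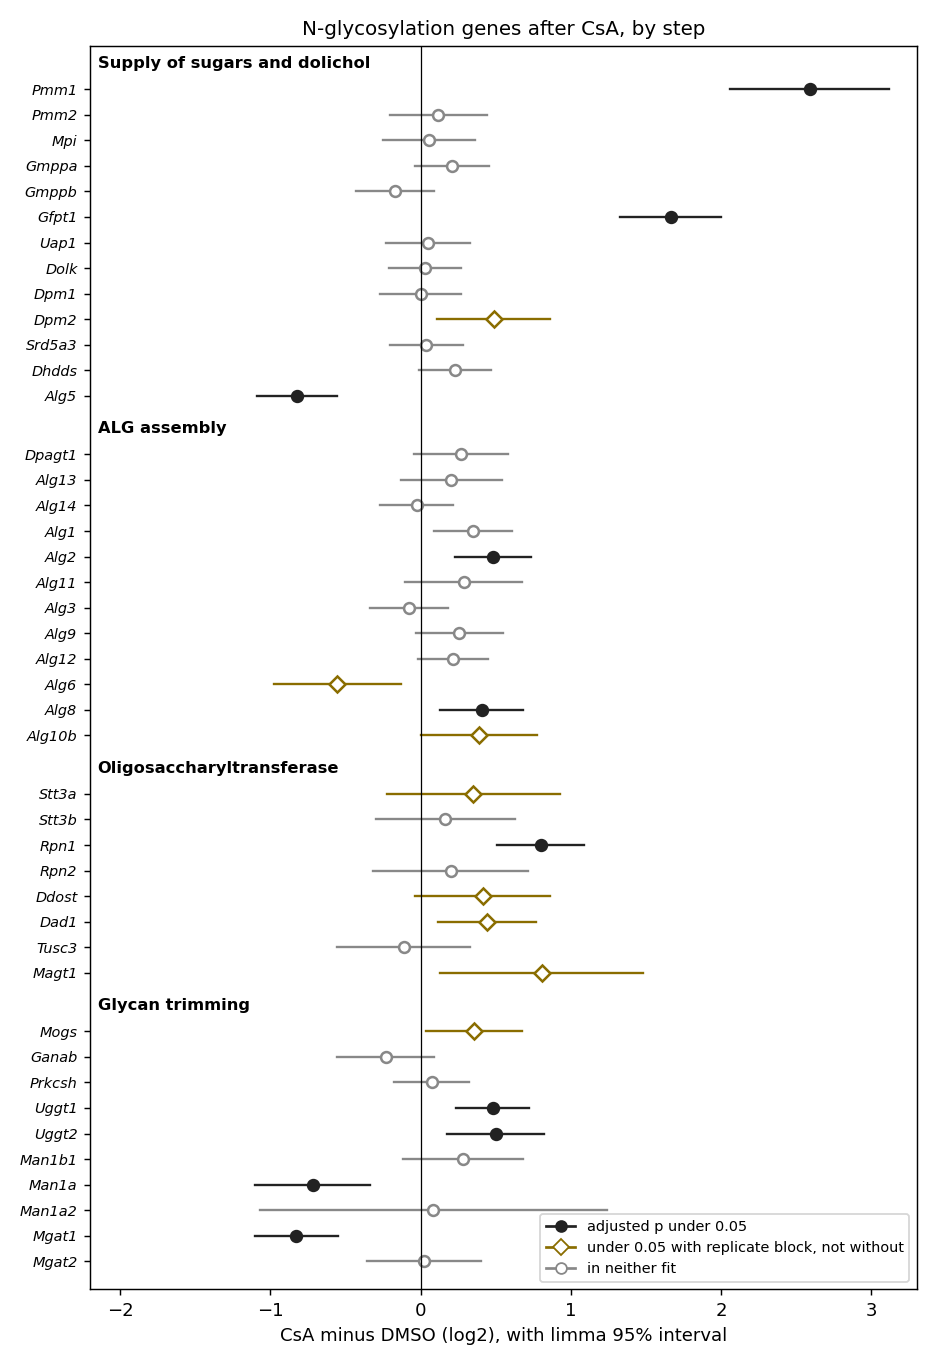
Difference of each measured member, in log2 units (CsA minus DMSO), with the 95% interval of limma without the block (3 arrays per group), ordered by step. Filled circles passed an adjusted p of 0.05, open diamonds passed with the replicate block but not without it, and open circles passed in neither fit. Pmm1 at 2.59 and Gfpt1 at 1.67 stand to the right of the other members, and Alg5, Man1a and Mgat1 lie between -0.83 and -0.72.

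The labelled cell type was checked by its markers. Of 5 measured hepatocyte markers, Alb was at 15.16 or above on all 6 arrays, and Ttr, Apoa1, Apob and Hnf4a fell (-0.58, -0.99, -1.57 and -1.73). The 4 that fell passed the threshold and were 80% of the list, against 9.05% of rows. Alb, at the top of the scale, differed by -0.10 ± 0.10 and did not pass. For all 5, every CsA array lay below every DMSO array (100%, against 15.3% of rows). The list's mean level was 12.31 to 12.44 in CsA and 13.28 to 13.45 in DMSO. Of 21 measured markers of Kupffer, endothelial, stellate and bile duct cells and leukocytes, limma gave 0 higher (against 9.55% of rows) and 2 lower. The lower ones, Stab2 and Sox9, were 9.52%, near the 9.05% of all rows (adjusted p under 0.05). At an unadjusted p under 0.05 there were 0 and 3, beside 17.3% of rows (higher) and 13.9% (lower). With the replicate block 0 were higher (against 15.8% of rows) and 3 lower (14.3%, against 12.9%). Of the 21 differences, 3 were above 0 (14.3%, against 56.3% of rows) and 18 below. The mean level of the 21 markers was 5.01 to 5.09 in CsA and 5.07 to 5.26 in DMSO. Single values lay between 2.88 and 6.89, where array medians were 6.70 to 6.78. How far low signal limits these calls was not tested. Fewer cells of a type and less RNA per cell cannot be told apart in these cultures. The part of the lower hepatocyte markers in the values below was not tested.

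The stretch before the start site was searched for letters known to bind factors of the response to unfolded protein. Whether such factors act on the members in these cultures was not tested. RefSeq promoter entries (GRCm38.p6, 250 bases before to 50 after the start) were found for 37 of the 43 members by gene ID. The ERSE (bound by ATF6 and XBP1 with NF-Y), written as CCAAT and CCACG with any 9 bases between them, was in 0.137% of 27025 genes with an entry, on either strand, and in 1 member, Alg12, 220 to 202 bases before its start. Alg12 itself did not pass, at 0.21 ± 0.10. The ERSE-II, written as ATTGG and CCACG with any 1 base between them (in 0.0444% of genes), TGACGTGG (a core of the XBP1 element, 0.714%) and TGATGCAA (a core of the ATF4 element, 1.03%) were in 0 members. Of the 10 changed members 9 had an entry, and 0 held any of the 4 motifs. Motifs this rare would be missing from most sets of 9 or 37 genes. The counts of 0 therefore cannot tell whether the members differ from other genes. A search of this window says nothing on sites elsewhere or with other letters. The stretches before the start sites of Alg12, for its match, and of Pmm1, Gfpt1 and Rpn1, the members with the largest rises among the 7 called without the block, are shown 5′ to 3′, with CCAAT and CCACG, the end blocks of the ERSE, in capitals on either strand. Within 200 bases Gfpt1 held 1 CCAAT and 2 CCACG, Rpn1 1 of each and Pmm1 1 CCACG, in no case at the ERSE's spacing.
Alg12 (chr15:88819319-88819568, minus strand): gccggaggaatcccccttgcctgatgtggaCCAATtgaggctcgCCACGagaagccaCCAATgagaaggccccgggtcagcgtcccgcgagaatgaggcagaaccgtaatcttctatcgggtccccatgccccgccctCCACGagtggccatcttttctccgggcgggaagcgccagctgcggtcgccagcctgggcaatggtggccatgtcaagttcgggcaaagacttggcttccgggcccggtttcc
Pmm1 (chr15:81960931-81961130, minus strand): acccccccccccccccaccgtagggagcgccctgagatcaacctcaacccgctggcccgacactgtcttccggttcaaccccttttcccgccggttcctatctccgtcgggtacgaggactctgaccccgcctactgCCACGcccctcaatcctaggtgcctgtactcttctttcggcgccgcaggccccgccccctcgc
Gfpt1 (chr6:87042646-87042845, plus strand): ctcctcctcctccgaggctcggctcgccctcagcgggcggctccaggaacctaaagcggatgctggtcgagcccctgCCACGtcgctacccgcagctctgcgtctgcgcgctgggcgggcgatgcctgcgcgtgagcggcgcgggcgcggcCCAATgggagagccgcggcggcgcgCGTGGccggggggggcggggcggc
Rpn1 (chr6:88084273-88084472, plus strand): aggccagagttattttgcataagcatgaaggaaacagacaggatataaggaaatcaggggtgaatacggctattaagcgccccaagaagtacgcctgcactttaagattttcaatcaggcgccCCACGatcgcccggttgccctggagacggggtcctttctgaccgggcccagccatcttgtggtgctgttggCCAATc

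Among 13 measured genes of sugar and dolichol supply, 2 were higher (15.4%, against 9.55% of rows), 1 was lower (7.69%, against 9.05%) and 10 did not pass. Levels are log2 RMA values and are compared between arrays, not between genes. Pmm1 was at 12.36, 11.96 and 11.93 in CsA, against 9.83, 8.94 and 9.71 in DMSO. Every CsA array lay more than 2 units above every DMSO array, and the difference was 2.59 ± 0.23 (SE, adjusted p = 0.000205). Its paralog Pmm2, the phosphomannomutase on which human glycosylation chiefly depends, was at 8.41, 8.58 and 8.34 in CsA, against 8.05, 8.43 and 8.50 in DMSO. Those groups overlapped, and the difference was 0.12 ± 0.14. The log2 ratio of Pmm1 to Pmm2 within an array, less its mean over the 6 arrays, was 0.98 to 1.54 in CsA and -1.90 to -0.62 in DMSO, a contrast picked after the values were seen and not tested.

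Gfpt1 was at 9.68, 9.54 and 9.36 in CsA, against 8.13, 7.80 and 7.66 in DMSO. The groups were well apart, and the 3 same-numbered differences were 1.56, 1.73 and 1.71 (mean 1.67 ± 0.15, SE, adjusted p = 0.000198). The other 4 members that act on sugar phosphates or nucleotide sugars, besides both phosphomannomutases, did not pass. Uap1, which completes UDP-N-acetylglucosamine, differed by 0.05 ± 0.12, and Mpi, which links fructose and mannose phosphates, by 0.06 ± 0.13. Gmppb, which makes GDP-mannose, differed by -0.17 ± 0.11, and Gmppa, its regulatory partner, by 0.21 ± 0.11.

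Alg5, which makes the dolichol-linked glucose donor, was at 10.17, 9.96 and 10.14 in CsA, against 10.79, 10.90 and 11.06 in DMSO. All CsA arrays were below all DMSO arrays (-0.82 ± 0.12, SE, adjusted p = 0.00187). Dpm2, a stabilising subunit of the synthase of the dolichol-linked mannose donor, was at 10.17, 10.05 and 10.49 in CsA, against 9.57, 9.65 and 10.05 in DMSO. Both arrays numbered 3 were the highest of their group, and the lowest CsA array was just above the highest DMSO array. The difference was 0.49 ± 0.16, with an adjusted p of 0.0753, and of 0.00764 with the replicate block. Further settings that called Dpm2 were array weights (0.017), centring (0.0448), and leaving out DMSO array 3 (0.0253) or both arrays numbered 3 (0.0156). For the catalytic subunit gene Dpm1 the 95% interval of the difference had bounds of -0.27 and 0.27. Dolk, the dolichol kinase (0.03 ± 0.11), Srd5a3, a reductase of dolichol synthesis (0.04 ± 0.11), and Dhdds, a prenyltransferase subunit (0.23 ± 0.10), did not pass, though Dhdds did with array weights (adjusted p = 0.0332). For Pmm2, Mpi, Uap1, Dolk and Srd5a3 the 95% interval stayed within -0.25 and 0.44.

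Differences in ALG assembly lay between -0.55 and 0.48 on the log2 scale. Limma placed 2 of 12 genes higher (16.7%, against 9.55% of rows) and 0 lower (against 9.05%). At an unadjusted p under 0.05 there were 4 and 1, beside 17.3% of rows (higher) and 13.9% (lower). With the replicate block 3 were higher (25%, against 15.8% of rows) and 1 lower (8.33%, against 12.9%). Without both arrays numbered 3, 6 were higher and 1 lower (58.3% called, against 25.5% of rows). Alg2, which adds mannose on the cytosolic face of the reticulum, was at 9.46, 9.58 and 9.63 in CsA, against 9.10, 8.94 and 9.18 in DMSO. The groups did not overlap, and the difference was 0.48 ± 0.11 (SE, adjusted p = 0.0175). Leaving out either array numbered 2 ended the call (adjusted p = 0.072 without the CsA array and 0.0782 without the DMSO array).

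The 3 glucosyltransferases that finish the oligosaccharide went both ways. Alg6, which adds the innermost glucose, was at 7.09, 6.77 and 6.47 in CsA, against 7.56, 7.40 and 7.03 in DMSO. CsA replicate 1 overlapped with DMSO replicate 3, yet each CsA array was below its DMSO partner, by -0.47, -0.64 and -0.56. It passed with the replicate block (-0.55, adjusted p = 0.00408) and not without it (0.0732). It also passed with array weights (0.011), without CsA array 1 (0.0429), without DMSO array 3 (0.0338) and without both arrays numbered 3 (0.0305). Alg8, which adds the next glucose, was at 9.67, 9.67 and 9.52 in CsA, against 9.17, 9.06 and 9.40 in DMSO. The numbered 3 arrays were closest (0.41 ± 0.12, SE, adjusted p = 0.0488). Leaving out any array numbered 1 or 2 ended the call, with adjusted p of 0.135 and 0.157 for CsA arrays 1 and 2 and of 0.142 and 0.177 for DMSO arrays 1 and 2. So did a trended prior variance (0.055) and a repeat of the quantile normalization (0.0541). Alg10b, which adds the last glucose, was at 9.20, 9.07 and 8.67 in CsA, against 8.85, 8.50 and 8.43 in DMSO. The groups overlapped, each CsA array lay above its partner, and it passed with the block (0.39, adjusted p = 0.0278, against 0.159 without it), with array weights (0.0175) and without CsA array 3 (0.0396).

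The other 8 ALG genes passed neither with nor without the block. Dpagt1, which starts the oligosaccharide, differed by 0.27 ± 0.14, and Alg1, which adds the innermost mannose, by 0.35 ± 0.11 (adjusted p = 0.0696, and 0.0505 with the block). Alg1 passed with array weights (0.0117), after centring (0.0369), among the brighter 50% of rows (0.049), without DMSO array 3 (0.0357) and without both arrays numbered 3 (0.0242). Alg13 and Alg14, which together add the other innermost N-acetylglucosamine, differed by 0.20 ± 0.15 and -0.03 ± 0.11. Alg11, a further cytosolic mannosyltransferase, differed by 0.29 ± 0.17. The luminal mannosyltransferases Alg3, Alg9 and Alg12 differed by -0.08 ± 0.11, 0.26 ± 0.13 and 0.21 ± 0.10. For Dpagt1, Alg11 and Alg9 the arrays numbered 3 showed the smallest difference (0.11, -0.01 and 0.09), and all of them passed with CsA array 3 left out (adjusted p = 0.0466, 0.0266 and 0.0477). The same genes passed with array weights (0.0322, 0.0304 and 0.0355) and without both arrays numbered 3 (0.0482, 0.0315 and 0.048).

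**Figure D2:**
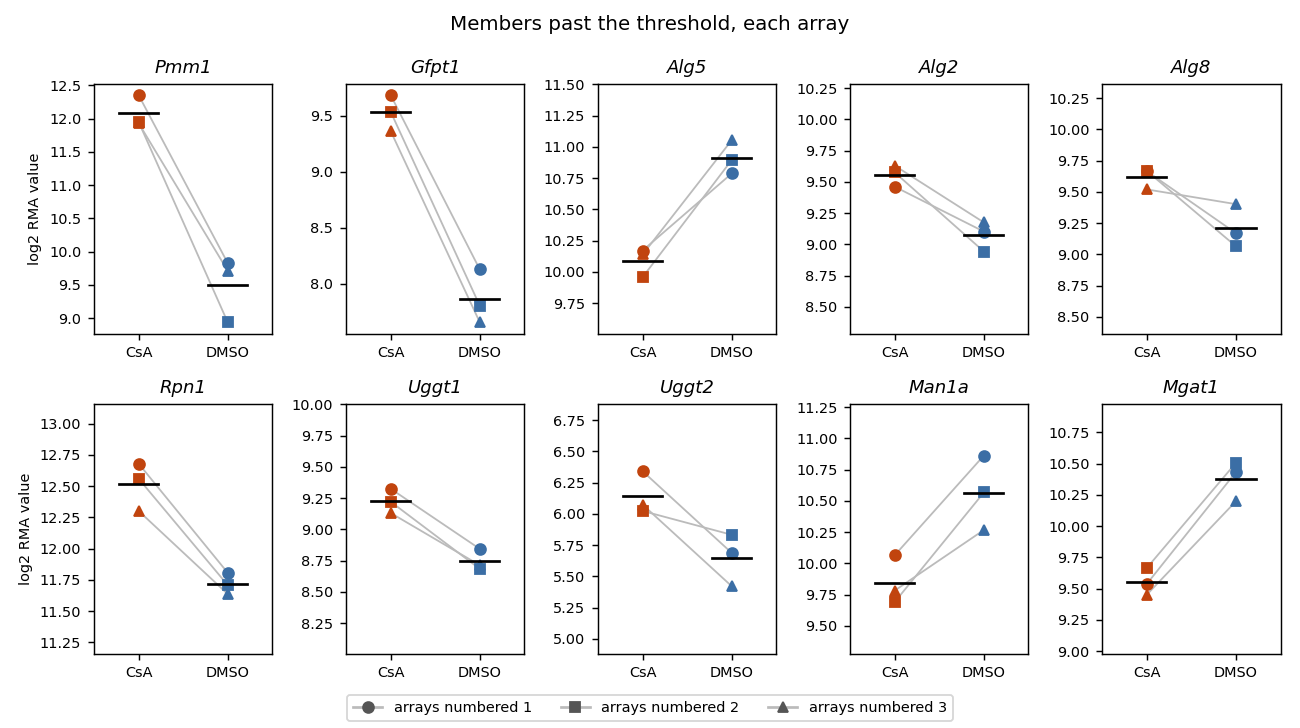
Log2 RMA values of the 10 members past the threshold on every array, CsA at the left and DMSO at the right of each panel, with lines joining same-numbered arrays and bars at the group means. Each panel has its own axis of at least 2 log2 units. CsA and DMSO arrays do not overlap for any of the 10, and Pmm1 and Gfpt1 show the widest gaps. The 10 were picked by these same values, so the lack of overlap adds no support. Over all rows, 19.8% had all CsA arrays above all DMSO arrays and 15.3% had them below.

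For 7 of the 8 measured oligosaccharyltransferase subunits (87.5%, against 32.8% of rows) all 3 CsA arrays were above their same-numbered DMSO arrays. The share was 66.7% in ALG assembly, 50% in glycan trimming, 38.5% in supply and 58.1% over all members, so it was raised beyond this step too. The titles do not state that same-numbered arrays are pairs. Limma placed 1 of 8 genes higher (12.5%, against 9.55% of rows) and 0 lower (against 9.05%). At an unadjusted p under 0.05 there were 3 and 0, beside 17.3% of rows (higher) and 13.9% (lower). With the replicate block 5 were higher (62.5%, against 15.8% of rows) and 0 lower (against 12.9%). Without both arrays numbered 3, 4 were higher and 0 lower (50% called, against 25.5% of rows). Rpn1, the shared subunit that docks near the ribosome, was at 12.68, 12.56 and 12.30 in CsA, against 11.81, 11.71 and 11.64 in DMSO. The groups were clear of each other (0.80 ± 0.13, SE, adjusted p = 0.0031).

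Of the other 7 subunits, 4 passed with the block and not without it. Stt3a, the catalytic subunit of the complex that works on nascent chains, was at 10.89, 10.65 and 10.14 in CsA, against 10.60, 10.33 and 9.71 in DMSO. The arrays numbered 3 were lowest in both groups, and the same-numbered differences were 0.29, 0.32 and 0.44. The adjusted p was 0.0254 with the block and 0.415 without it, and no other setting called Stt3a. Without the block, the difference of 0.35 became 0.096 with DMSO array 3 left out, 0.18 with CsA array 1 left out, 0.54 with DMSO array 1 left out and 0.56 with CsA array 3 left out. Stt3b, the catalytic subunit of the complex that works on missed sites, was at 11.95, 11.72 and 11.26 in CsA, against 11.74, 11.53 and 11.16 in DMSO. It passed in neither fit (0.16 ± 0.20).

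Ddost, a shared subunit, was at 12.05, 11.91 and 11.32 in CsA, against 11.59, 11.30 and 11.16 in DMSO. CsA replicate 3 overlapped with the DMSO arrays, and it passed with the block (0.41, adjusted p = 0.0306, against 0.2 without it). It also passed with array weights (0.0166), without CsA array 3 (0.63, adjusted p = 0.0221) and without both arrays numbered 3 (0.0286). Dad1, a small shared subunit whose loss causes apoptosis in hamster cells, was at 11.12, 11.15 and 11.39 in CsA, against 10.54, 10.79 and 11.002 in DMSO. Its groups did not overlap, and unlike Stt3a and Ddost it was highest on the arrays numbered 3 in both groups (0.44, adjusted p = 0.0123 with the block, against 0.064). Dad1 also passed with array weights (0.0156), after centring (0.0382), among the brighter 50% of rows (0.0482), without DMSO array 3 (0.0289) and without both arrays numbered 3 (0.0307). Rpn2 differed by 0.20 ± 0.23 and passed in neither fit.

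Magt1 and Tusc3 are alternative oxidoreductase subunits of the Stt3b complex. Magt1 was at 10.97, 10.95 and 9.97 in CsA, against 10.28, 9.78 and 9.42 in DMSO. CsA replicate 3 overlapped with DMSO replicate 1, and the same-numbered differences were 0.69, 1.17 and 0.56 (mean 0.80, adjusted p = 0.00394 with the block, against 0.0977). It also passed with array weights (0.00506), without CsA array 3 (0.0114) and without both arrays numbered 3 (0.0104). Tusc3 was at 8.89, 8.89 and 8.18 in CsA, against 8.85, 8.61 and 8.84 in DMSO. CsA replicate 3 stood below the other 5 arrays, and the difference was -0.11 ± 0.19, or 0.16 without both arrays numbered 3.

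**Figure D3:**
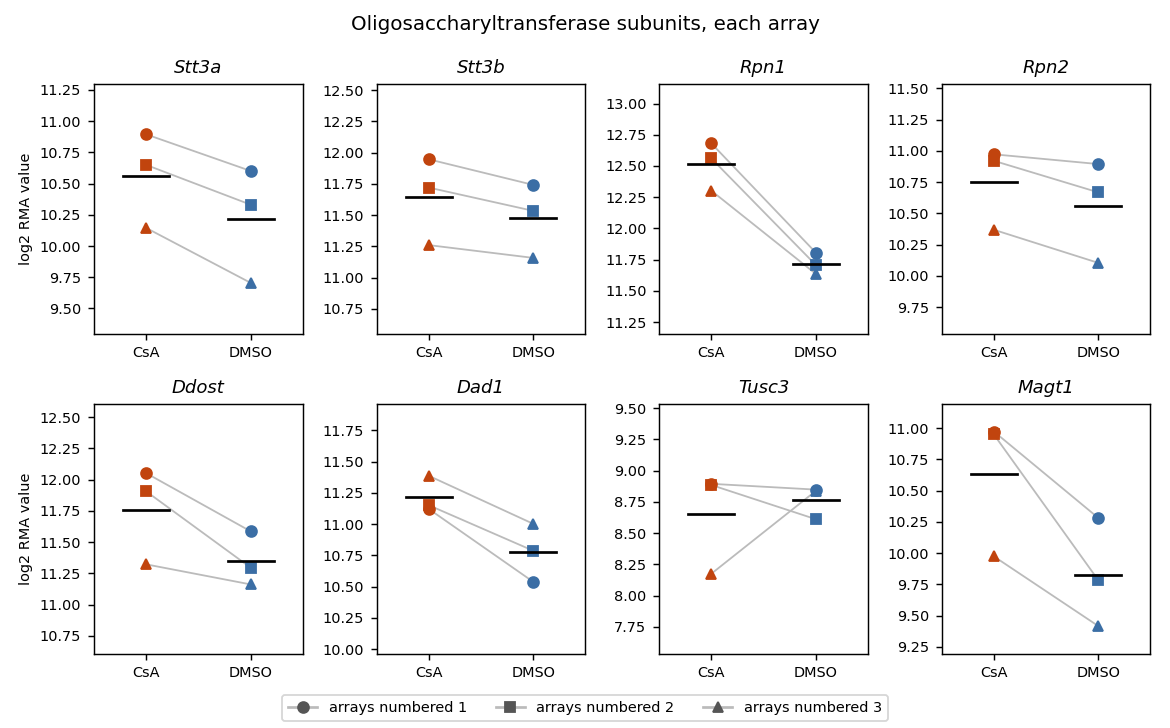
Log2 RMA values of the 8 measured oligosaccharyltransferase members on every array, CsA at the left and DMSO at the right of each panel, with lines joining same-numbered arrays and bars at the group means. The lines fall to the right in all 3 pairs for every subunit shown except Tusc3, and the triangles (arrays numbered 3) lie lowest in both groups for Stt3a, Stt3b, Rpn1, Rpn2, Ddost and Magt1 and highest for Dad1.

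Genes that act on the attached glycan went both ways. Among the 10 genes listed under trimming, 2 rose (20%, against 9.55% of rows), 2 fell (20%, against 9.05%) and 6 did not pass. Both that rose, Uggt1 and Uggt2, add glucose. Of those that fell, Man1a removes mannose and Mgat1 adds a branch. Uggt1, which puts glucose back on misfolded glycoproteins, was at 9.33, 9.22 and 9.13 in CsA, against 8.84, 8.68 and 8.71 in DMSO. The groups did not overlap (0.48 ± 0.11, SE, adjusted p = 0.0156). The adjusted p was above the threshold with CsA array 1 (0.063), CsA array 2 (0.0622) or DMSO array 2 (0.0703) left out. Its paralog Uggt2 was at 6.34, 6.02 and 6.07 in CsA, against 5.69, 5.83 and 5.42 in DMSO. The groups did not overlap, but the gap between CsA replicate 2 and DMSO replicate 2 was only 0.19 (0.50 ± 0.14, SE, adjusted p = 0.0406). Leaving out any 1 array ended its call (adjusted p 0.0515 to 0.133), as did leaving out both arrays numbered 3 (0.0686) or repeated quantile normalization (0.0514).

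The glucosidases did not pass without the block. Mogs, glucosidase I, was at 9.18, 9.27 and 9.58 in CsA, against 8.85, 8.95 and 9.17 in DMSO. Each CsA array lay above its partner by 0.33, 0.32 and 0.41, and it passed with the block (adjusted p = 0.0226, against 0.123 without it) and with array weights (0.0397). Ganab and Prkcsh, the catalytic and the regulatory subunit of glucosidase II, differed by -0.23 ± 0.14 and 0.07 ± 0.11.

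The mannosidase Man1a and the branching enzyme Mgat1, both of the Golgi, fell. Man1a was at 10.06, 9.69 and 9.78 in CsA, against 10.86, 10.57 and 10.27 in DMSO. The groups did not overlap (-0.72 ± 0.17, SE, adjusted p = 0.0189), and leaving out CsA array 2 (0.0794), DMSO array 1 (0.0586) or DMSO array 2 (0.0656) put it above the threshold. Mgat1, which starts hybrid and complex glycans, was at 9.54, 9.66 and 9.45 in CsA, against 10.43, 10.51 and 10.20 in DMSO. All same-numbered differences were between -0.90 and -0.75 (mean -0.83 ± 0.12, SE, adjusted p = 0.00216). Mgat2, which adds the next branch, was at 10.34, 10.36 and 9.91 in CsA, against 10.30, 10.33 and 9.91 in DMSO. Same-numbered arrays lay within 0.04 of each other. Man1b1, a mannosidase of the early secretory pathway, differed by 0.28 ± 0.18 (adjusted p = 0.334, and 0.0524 with the block).

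Man1a2, a paralog of Man1a, was set by the arrays numbered 3. It was at 8.29, 8.19 and 6.33 in CsA, against 7.93, 7.83 and 6.80 in DMSO. The same-numbered differences were 0.36, 0.36 and -0.47, and the overall difference was 0.08 ± 0.51. Without both arrays numbered 3 it was 0.36, with an adjusted p of 0.0472.

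For 5 pairs of paralogous members the ratio of both genes within an array was compared between groups by an exact two-sided permutation test. With 3 against 3 arrays that test cannot go below 0.1. The change in the log2 ratio was -0.92 for Tusc3 to Magt1, 0.38 for Gmppa to Gmppb and 0.19 for Stt3a to Stt3b. In these pairs CsA and DMSO arrays did not overlap (exact p = 0.1 each, 0.167 adjusted over the 5 pairs). For Stt3a to Stt3b the gap was narrow, with arrays at 0.06 to 0.12 in CsA and -0.28 to 0.03 in DMSO. The lowest value there was that of DMSO array 3. Man1a to Man1a2 changed by -0.80 with overlapping arrays (exact p = 0.3, adjusted 0.375). Uggt1 to Uggt2 changed by -0.02, with arrays between -0.11 and 0.11 in CsA and between -0.24 and 0.20 in DMSO (exact p = 1). No pair could pass at this number of arrays.

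**Figure D4:**
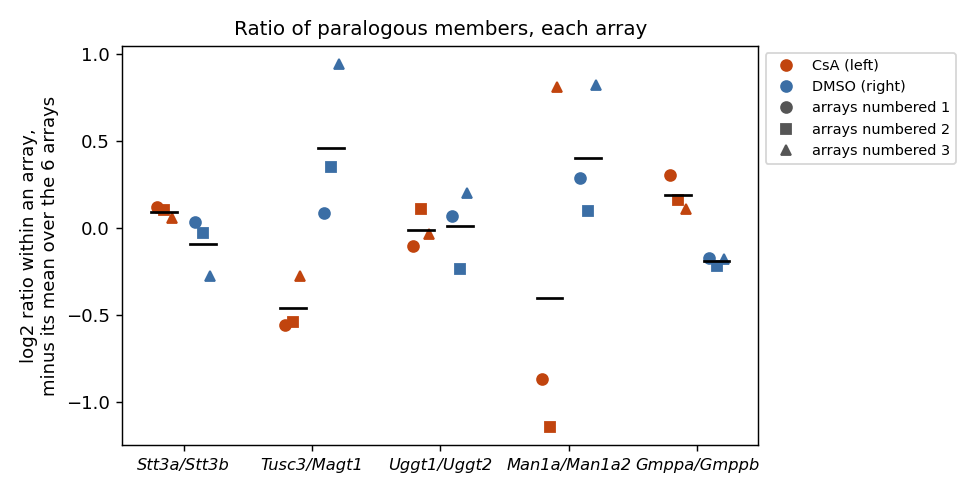
Log2 ratio of paralogous members within each array, less the pair's mean over the 6 arrays, CsA at the left and DMSO at the right of each pair, with bars at the group means. The CsA and DMSO arrays are apart for Tusc3/Magt1 and Gmppa/Gmppb, narrowly apart for Stt3a/Stt3b, and overlap for Uggt1/Uggt2 and Man1a/Man1a2.

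Other genes of the pathway gave 24 measured genes of 28 listed, of which 3 rose (12.5%, against 9.55% of all rows), 4 fell (16.7%, against 9.05%) and the other 17 did not pass. The list was chosen with earlier results of these data known. Its shares, and those of its Golgi part below, are therefore no test against all rows. Nus1, the partner of Dhdds in making dolichol's chain, was at 10.82, 10.78 and 10.71 in CsA, against 10.19, 10.16 and 10.10 in DMSO. Its 3 same-numbered differences were 0.62 or 0.63 (0.62 ± 0.10, SE, adjusted p = 0.00316). Ugp2, which makes the UDP-glucose that Alg5 uses, was at 11.23, 10.77 and 10.79 in CsA, against 12.21, 12.02 and 12.04 in DMSO. It was 2.23-fold lower, with no overlap (-1.16 ± 0.14, SE, adjusted p = 0.00102).

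Both small subunits that join Stt3a's complex, Krtcap2 and Ostc, rose. Krtcap2 was at 12.10, 12.09 and 12.35 in CsA, against 11.44, 11.41 and 11.72 in DMSO (0.66 ± 0.13, SE, adjusted p = 0.00871). Its promoter entry held the ERSE-II at bases 18 to 28 after the start, the 1 match of the 4 motifs among the 21 of these genes with an entry. Ostc was at 11.74, 11.70 and 11.91 in CsA, against 11.37, 11.24 and 11.41 in DMSO (0.44 ± 0.11, SE, adjusted p = 0.0243). Leaving out any 1 array other than DMSO replicate 3 ended the call for Ostc (adjusted p 0.0518 to 0.101). Ost4 and Tmem258, further shared subunits, differed by 0.21 ± 0.12 and 0.16 ± 0.15.

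Golgi branching and capping had 12 measured genes, with 0 higher (against 9.55% of rows) and 3 lower (25%, against 9.05%) in limma. At an unadjusted p under 0.05 there were 0 and 4, beside 17.3% of rows (higher) and 13.9% (lower). St3gal4, which caps galactose with sialic acid, was at 8.24, 8.34 and 7.92 in CsA, against 9.86, 9.89 and 9.37 in DMSO. It fell 2.91-fold, more than any member, and the groups were wide apart (-1.54 ± 0.17, SE, adjusted p = 0.000577). Man2a1, which trims the glycan after Mgat1 has acted, was at 9.48, 9.43 and 9.07 in CsA, against 10.57, 10.74 and 10.23 in DMSO. It fell 2.28-fold (-1.19 ± 0.17, SE, adjusted p = 0.0017). B4galt1, which adds galactose, was at 8.72, 8.64 and 8.81 in CsA, against 9.38, 9.43 and 9.33 in DMSO. It fell 1.58-fold (-0.66 ± 0.10, SE, adjusted p = 0.00285). With the block 4 were lower (33.3%, against 12.9% of rows). Fut8, which adds the core fucose, was the added gene (-0.35, adjusted p = 0.0376, against 0.346), and without the block its difference was -0.53 to -0.13 with 1 array left out. Hepatocyte markers were lower in the same arrays, as given above, and their part in these falls was not tested.

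**Figure D5:**
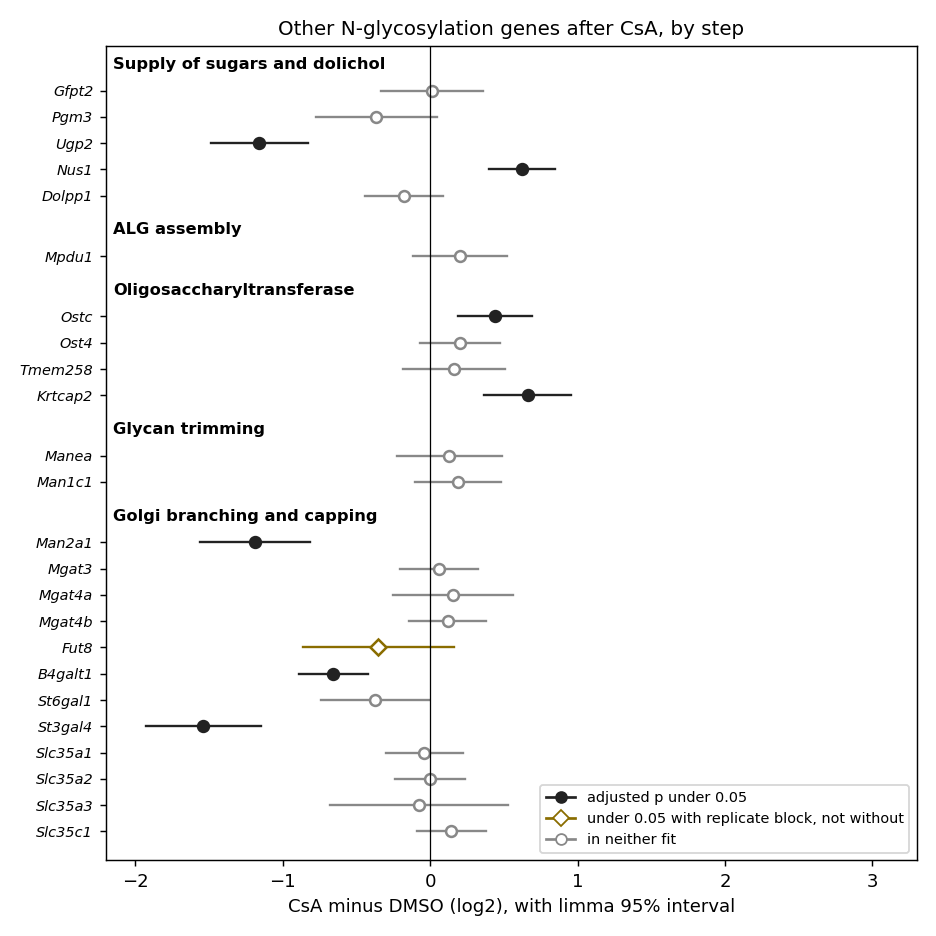
Difference of the 24 other measured genes of N-glycosylation, in log2 units (CsA minus DMSO), with the 95% interval of limma without the block (3 arrays per group), ordered by step and with symbols for the test as filled circles (passed), open diamonds (passed with the replicate block but not without it) and open circles (neither). Nus1, Ostc and Krtcap2 lie right of 0, and Ugp2, Man2a1, B4galt1 and St3gal4 lie left of it.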

How the data were processed

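Expression was measured in 6 samples of mouse hepatocytes, 1 array each. The authors deposited log2 expression values. The submitters' processing notes name RMA and R 2.11.0. RMA corrects background, gives all arrays a common distribution and combines the probes of a set, so it takes out a change in total RNA and narrows differences at both ends of the scale. Values lay between 2.44 and 15.3, and array medians between 6.70 and 6.78. The array type, probe set definition and genome build are not given in the sources used here. With 3 arrays per group, the number of arrays limits precision. Detection calls were not used here.

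The platform's gene table named 15136 of 16331 rows. Sample titles gave the groups. limma 3.58.1 (R 4.3.3) fitted CsA against DMSO with lmFit and eBayes, two-sided and with no covariate. P-values were adjusted by Benjamini-Hochberg over all 16331 rows, with a threshold of 0.05, and errors of differences are moderated standard errors (SE). The fit was tested on simulated data. A second fit had the replicate number as a block. The numbers were taken as pairs because every same-numbered pair correlated above 0.1. CsA array 1 with DMSO array 2 did so too (0.22), so this mark does not by itself set the pairs apart. Nothing in the titles states that both groups shared 3 animals: CsA titles carry a single prefix and DMSO titles several. P-values measure the spread between these samples.

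The members, the lists of other pathway genes and markers, and the alternatives were chosen with earlier results of these data known. The alternatives were the prior variance, array weights, normalization, centring, leaving out dim rows, a stricter threshold and leaving out arrays. Every measured member is reported, with all array values for those past the threshold in either fit. Other pathway genes are named where they passed or are subunits of oligosaccharyltransferase. Paralogs with alike sequence can share hybridisation, which was not examined here. Promoter sequences are RefSeq's, of assembly GRCm38.p6.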

Additional observations from a re-analysis of the deposited data

How the results depend on the processing

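Pmm1, Gfpt1, Alg5, Rpn1, Mgat1, Ugp2, Nus1, Krtcap2, Man2a1, B4galt1 and St3gal4 kept their call and sign under all alternatives run. The 7 higher members became 14 with the replicate block, 15 without both arrays numbered 3, 18 with weighted arrays, 3 at the threshold of 0.01, and 3 to 12 with 1 array left out. The share of all rows called also rose, from 18.6% to 28.7% with the block and 25.5% without both arrays numbered 3. For the other settings that share is not given here, so their counts cannot be set against the table. The block ended no call of a gene named here. Lower members numbered 2 to 4, higher and lower other pathway genes 2 to 3 and 4 to 5, and the members' median difference was 0.16 to 0.28. At an adjusted p under 0.01 the calls of Alg2, Alg8, Uggt1, Uggt2, Man1a and Ostc were lost. Leaving out the dimmest 50% of rows removed Dpm1, Alg13 and Uggt2. The change in the ratio of Uggt1 to Uggt2 turned to 0.087 without both arrays numbered 3 and was -0.14 to 0.076 with 1 array left out. Differences that were not called also turned: Dolk was at -0.044 with weighted arrays and -0.045 without both arrays numbered 3, Tusc3 at 0.12 and 0.16, and Alg14 at 0.027 after centring and 0.016 without both arrays numbered 3. Dpm1 was at 0.058 after repeated quantile normalization and 0.051 after centring. With 1 array left out, differences spanned -0.021 to 0.20 for Pmm2, -0.053 to 0.18 for Mpi, -0.024 to 0.072 for Srd5a3, -0.021 to 0.13 for Uap1, -0.027 to 0.065 for Dolk, -0.071 to 0.065 for Dpm1, -0.086 to 0.025 for Alg14, -0.027 to 0.39 for Rpn2, -0.27 to 0.72 for Man1a2, -0.11 to 0.17 for Mgat2 and -0.24 to 0.12 for Tusc3. The causes were not tested. No detection call was used, so how far signal over background limits the dimmest members is not given.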

Other observations

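Among the other pathway genes without a call, St6gal1, which adds sialic acid in another linkage than St3gal4, was at 8.52, 8.58 and 8.52 in CsA, against 9.18, 9.01 and 8.54 in DMSO. DMSO replicate 3 lay beside the CsA arrays and the other DMSO arrays above them. The difference was -0.37 ± 0.16 (limma adjusted p = 0.153, 0.0753 with the replicate block and 0.014 without both arrays numbered 3). Pgm3, a hexosamine enzyme that acts between Gfpt1 and Uap1, was at 10.65, 10.45 and 9.91 in CsA, against 10.66, 10.81 and 10.64 in DMSO. It differed by -0.36 ± 0.18 (limma adjusted p = 0.214), with CsA replicate 3 the lowest array. Both genes were picked after their values were seen.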
